A study of Mus musculus with 7 samples.

Results

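The interferon-response genes described here are 41 genes taken from a written list of interferon-induced genes and the transcription factors that induce them, out of 52230 mouse genes with a matched transcript. All 41 had enough reads to be tested, among 19233 tested genes. They were measured by RNA-seq in the ovarian stroma of mice of the PRKO strain (Pgrtm1Bwo), in which the progesterone receptor gene *Pgr* is disrupted in every cell of the body. The stroma is the residual ovary after repeated puncture to remove granulosa cells. The 4 wildtype (WT, PGR +/+) and 3 null (KO, PGR -/-) libraries each came from ovaries pooled from 3 females aged 21 to 27 days. All females, in both groups, received 5 IU eCG and 44 h later 5 IU hCG, and the ovaries were collected 8 h post-hCG, shortly before follicles rupture. The comparison asked whether loss of PGR altered the interferon-response genes of this tissue, and whether *Ifi205*, a member of the p200 family, differed alone or together with the others.

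Interferons are secreted proteins that bind receptors on most cells and activate JAK kinases. Type I interferons lead to a complex with STAT2 and IRF9 that binds the interferon-stimulated response element (ISRE), a repeat of GAAA blocks, whereas interferon gamma acts largely through the gamma-activated site (GAS). The induced genes encode nucleic acid sensors, antiviral enzymes, GTPases that act on intracellular pathogens, and further transcription factors, and many of them are also read at a low tonic level in tissue without infection. The p200 genes lie in 1 cluster on mouse chromosome 1 and encode proteins with pyrin and HIN domains, which bind DNA or other pyrin proteins.

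Before the expression values, the start of several p200 genes is shown. This family carried the largest difference among the 41 genes, and several of its genes share stretches of sequence. The 10-letter ISRE core GAAANNGAAA, read on both strands as GAAANNGAAA or TTTCNNTTTC, was searched from 250 bases before to 50 bases after the annotated start of each gene in GRCm39. It was found in 23 of the 41 genes and in 572 of 15704 tested protein-coding genes (3.64%). The GAS letters TTCNNNGAA, which read the same on the other strand, were found in 10 of the 41 and in 7.86% of all. Both were present in 7 members and neither in 15. A longer progesterone-type element, AGNACANNNTGTNCT, was found in 0 members and in 3 of all genes (0.0191%), which says only that these letters are not in this window. Overlapping matches were counted separately, and a match is a description of letters and not a shown binding site. In the 30-base stretches below, read 5′ to 3′ on the strand of the gene, the capitals mark the ISRE core. All lie on chromosome 1, on the minus strand.
Ifi205 (chr1:173859436-173859465): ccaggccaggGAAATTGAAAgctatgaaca
Ifi204 (chr1:173594627-173594656): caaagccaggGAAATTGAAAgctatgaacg
Ifi211 (chr1:173740630-173740659): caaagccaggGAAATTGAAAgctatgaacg
Ifi203 (chr1:173770074-173770103): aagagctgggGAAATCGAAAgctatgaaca
Mndal (chr1:173707770-173707799): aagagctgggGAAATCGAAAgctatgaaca
Ifi207 (chr1:173569397-173569426): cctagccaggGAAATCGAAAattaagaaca

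The same 10 letters stood at the core in *Ifi205*, *Ifi204* and *Ifi211*. With the first transcribed base counted as 0, the core began at position -36 in *Ifi204*, -37 in *Ifi211*, -57 in *Ifi203*, -54 in *Mndal* and -33 in *Ifi207*. In *Ifi205* it began at position 1, so the annotated start of *Ifi205* lies next to the element and not downstream of it. The 250 bases before the start were 97.6% identical between *Ifi204* and *Ifi211*, 90.4% between *Ifi203* and *Mndal*, 66.6% between *Ifi204* and *Ifi205*, and 52.0% between *Ifi203* and *Ifi205*, in a global alignment with gaps counted as differences. Each window ends at its annotated start, so the window of *Ifi205* is offset from the others relative to the element. Ends left unmatched by this offset count as differences, which can lower the figure for *Ifi205* with *Ifi204*. For *Ifi203*, the figure with *Ifi205* was like that with *Ifi204*, at 52.4%. The upstream windows of *Ifi205* and *Ifi204* are given whole to show this likeness and the place of the element.
Ifi205 (chr1:173859457-173859706, minus strand): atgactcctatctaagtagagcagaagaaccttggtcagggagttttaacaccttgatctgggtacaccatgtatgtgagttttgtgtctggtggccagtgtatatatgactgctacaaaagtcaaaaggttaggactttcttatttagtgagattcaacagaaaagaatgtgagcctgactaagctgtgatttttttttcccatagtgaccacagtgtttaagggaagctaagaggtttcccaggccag
Ifi204 (chr1:173594611-173594860, minus strand): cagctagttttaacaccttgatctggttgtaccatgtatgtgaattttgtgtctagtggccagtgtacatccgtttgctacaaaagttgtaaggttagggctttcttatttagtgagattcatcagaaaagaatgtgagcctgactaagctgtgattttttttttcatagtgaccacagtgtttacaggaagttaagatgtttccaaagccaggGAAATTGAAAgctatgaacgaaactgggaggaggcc

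Sequencing assigned 47.4 M to 63.4 M reads per library. *Pgr*, the targeted gene, was read at 19.5, 31, 21.5 and 16.8 CPM (counts scaled to library size with TMM factors) in WT1 to WT4 and at 6.13, 6.52 and 7.56 CPM in KO2, KO3 and KO4. The KO mean was 30.3% of the WT mean, a log2 fold change of -1.72 ± 0.20 (SE; adjusted p = 0.0544 in edgeR's quasi-likelihood test and 3.8e-15 in DESeq2), and the groups did not overlap. Each library pooled mice, so the spread between libraries understates that between single mice. Granulosa markers remained readable in all libraries, summing to 2110 to 3300 CPM in WT and 2550 to 3220 CPM in KO.

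A gene was called different when its adjusted p was at most 0.05 and its absolute log2 fold change at least 0.5. By edgeR 0 of the 41 genes were called, beside 2 of 19233 genes (0.0104%), and at an unadjusted p under 0.05 edgeR found 5 of the 41 lower and 1 higher in KO. Over all genes these shares were 5.1% lower and 3.84% higher. The 5 became 9 without WT3 and 2 without KO2, and the 1 became 0 without KO2. By DESeq2, the tool the study itself used, 1 of the 41 was called, *Ifi205*, beside 143 of 17517 genes (0.816%). For 5 of the 41 genes every KO library was below every WT library (*Ifi204*, *Ifi205*, *Ifit1*, *Ifit3* and *Gbp3*), against 5.12% of all genes. For 0 of the 41 every KO library was above every WT library, against 3.93% of all genes.

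Direction was uneven but small in size. Of the 41 genes, 28 had a log2 fold change below 0 and 13 above 0, where 50.3% of all genes lay below 0. The median over the 41 was -0.07, from -1.44 for *Ifi205* to 0.40 for *Irf1*, and was also -0.07 over the 40 genes other than *Ifi205*. The median size, sign left out, was 0.15 on the log2 scale, against 0.10 over all genes. Among the WT libraries, WT2 had the highest value for 22 of the 41 genes and WT3 for 0, so the WT libraries also differed among themselves.

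**Figure D1:**
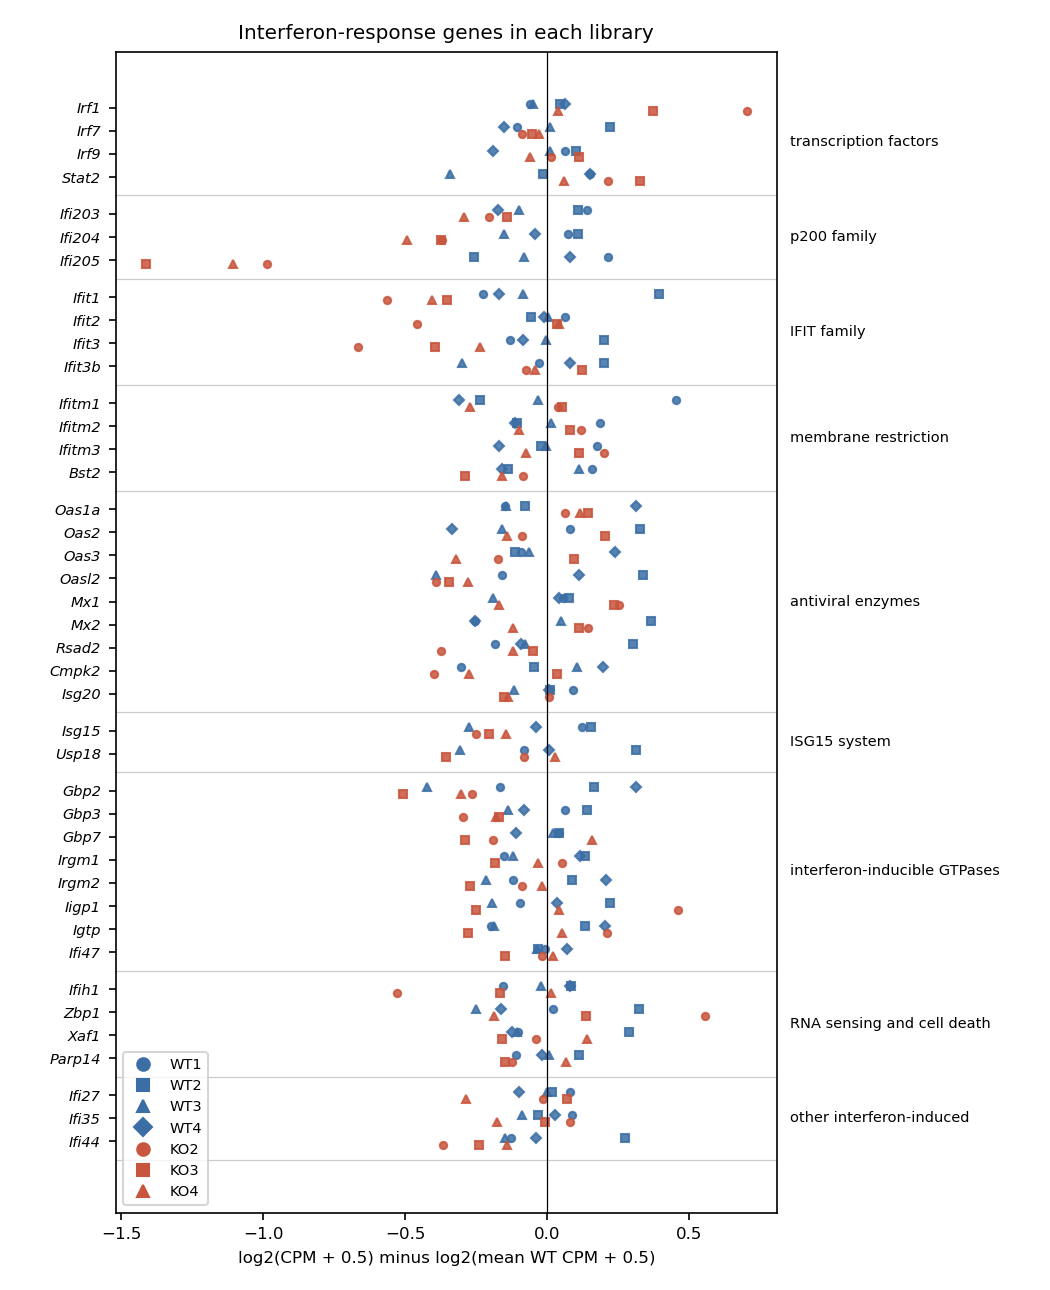
Values of the 41 interferon-response genes in each library, as log2(CPM + 0.5) minus the log2 of the WT mean plus 0.5 (horizontal axis), grouped by role, with WT in blue and KO in red and 1 symbol per library. *Ifi205* stands apart at the left, with its 3 KO points below -0.9, while for most genes the KO points lie among the WT points.

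In the p200 family all 3 members were lower in KO. *Ifi205*, which encodes a p200 protein best known from cells of the myeloid lineage, lies at chr1:173839549-173859456 on the minus strand (ENSMUSG00000054203). It was read at 4.07, 2.80, 3.23 and 3.67 CPM in WT1 to WT4, and at 1.49, 0.979 and 1.33 CPM in KO2, KO3 and KO4. The lowest WT library lay well above the highest KO library. The means were 3.44 ± 0.549 (SD, n = 4) and 1.27 ± 0.263 CPM (SD, n = 3), so that KO held 36.8% of the WT level. The log2 fold change was -1.44 ± 0.19 (SE), a 2.7-fold lower level, at an unadjusted p of 4.4e-05 in edgeR (adjusted p = 0.0796 in edgeR and 2.29e-08 in DESeq2). In edgeR the adjusted p was 0.0139 without the filter on low counts and ranged from 0.104 to 0.252 with single libraries left out. With DESeq2 the gene was called in all 7 fits that left out 1 library, with adjusted p from 2.61e-08 to 2.08e-05.

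The reads behind *Ifi205* numbered 141 to 228 per WT library and 47 to 86 per KO library. Most fell on the coding transcript Ifi205-201, with 85.8% of the gene's reads in WT and 87.8% in KO. The coding transcript had 186.2, 116.9, 157.5 and 194.0 estimated reads in WT and 77.2, 39.3 and 68.1 in KO. The retained-intron transcript Ifi205-202 had 26.1, 24.1, 24.6 and 33.9 in WT and 9.0, 7.6 and 9.1 in KO. Both transcripts were therefore lower in every KO library than in any WT library.

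*Ifi204*, a p200 gene known for a part in DNA sensing, was read at 7.42, 7.61, 6.28 and 6.80 CPM in WT and 5.32, 5.31 and 4.85 CPM in KO. The groups did not overlap. Its log2 fold change was -0.45 ± 0.11, with an adjusted p of 0.264 in edgeR and 0.0234 in DESeq2, and it missed the fold threshold in both. *Ifi203* was read at 27.8, 27.2, 23.5 and 22.3 CPM in WT and 21.8, 22.8 and 20.5 CPM in KO, and the log2 fold change was -0.22 ± 0.09 (edgeR adjusted p = 0.53). Here the highest KO library reached into the WT range. In TPM, which allows for transcript length, the WT means were 12 for *Ifi203*, 4.98 for *Ifi204* and 3.26 for *Ifi205*.

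The level of *Ifi205* beside that of its neighbours was described by the log2 ratio of CPM (each plus 0.5) within a library. The members were chosen with earlier results of these data known, and *Ifi205* had the lowest log2 fold change among them. The p-values of the ratios come from the same libraries, so they are not independent evidence that *Ifi205* was lower beyond its neighbours. The ratio of *Ifi205* to *Ifi203* was -2.63, -3.07, -2.69 and -2.45 in WT and -3.49, -3.98 and -3.52 in KO. The groups did not overlap, and the KO mean was lower by 0.95, with a p of 0.0286 by exact permutation of the libraries (two-sided, 35 splits), the smallest p this design can give. The ratio of *Ifi205* to *Ifi204* was -0.79, -1.30, -0.86 and -0.81 in WT and -1.54, -1.97 and -1.55 in KO. Its means differed by -0.75, with an exact permutation p of 0.0571. Adjusted over the 2 ratios, both p were 0.0571 in the exact permutation test. Thus every KO library held less *Ifi205* per unit of either neighbour than any WT library, and neither difference passed 0.05 after adjustment.

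Other p200 genes give the setting. Of 12 such names on the list, 10 were in the annotation and 7 were tested. By edgeR and by DESeq2 0 of these 7 were called, and at an unadjusted p under 0.05 edgeR found 1, *Mndal*. *Mndal* was read at 14.7, 12.3, 12.2 and 13.2 CPM in WT and 11.3, 10.4 and 9.13 CPM in KO, without overlap, with a log2 fold change of -0.35 ± 0.10 (edgeR adjusted p = 0.355). *Ifi211* was at 3.90, 3.42, 1.84 and 2.03 CPM in WT and 2.10, 1.92 and 1.71 CPM in KO, with the KO libraries beside the 2 lower WT libraries (log2 fold change -0.55 ± 0.27). *Ifi202b*, *Ifi207* and *Aim2*, a sensor of cytosolic DNA that starts inflammasomes, had log2 fold changes of -0.05, 0.04 and 0.20, each with overlapping groups. *Ifi208* and *Ifi209* had log2 fold changes of -0.14 and 0.56 from under 0.5 CPM in every library, and *Ifi206*, *Ifi213* and *Ifi214* were too rare to test.

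**Figure D2:**
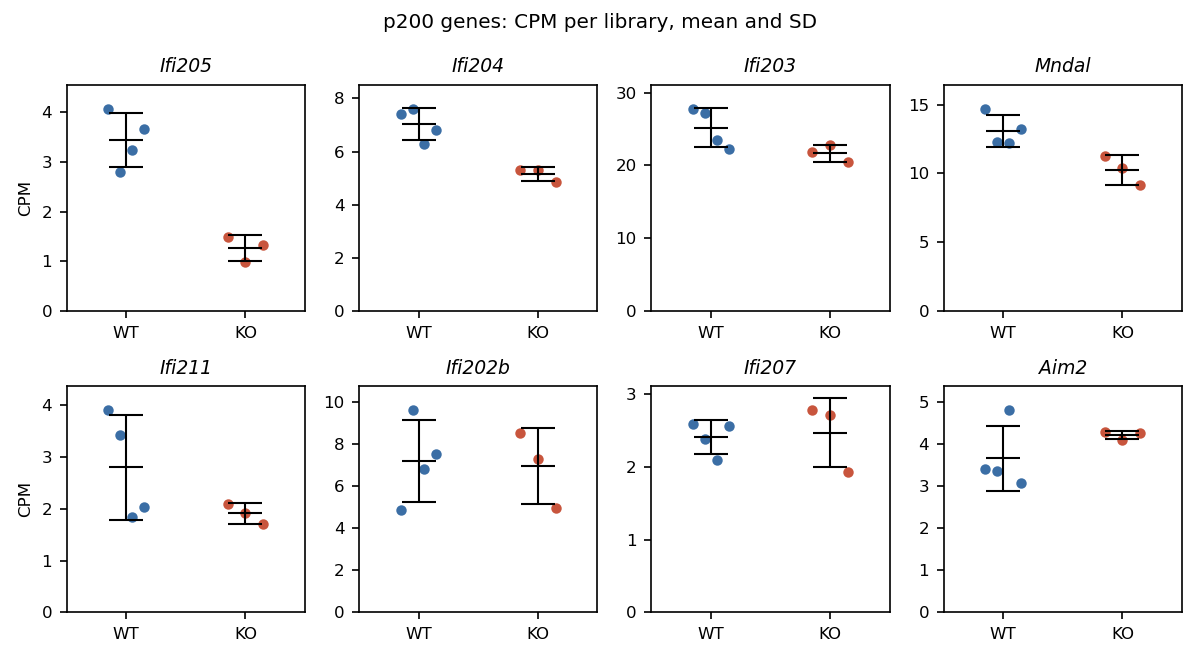
CPM of 8 p200 genes in each library (vertical axis from 0), for WT and KO, with points for libraries and bars for mean and SD. *Ifi205*, *Ifi204* and *Mndal* show no overlap between groups, and *Ifi205* has the lowest KO level relative to WT, at 36.8%.

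Because several p200 genes share stretches of sequence, reads can be split among them by the estimation. Of all 31-base words in the transcripts of *Ifi205*, 22.6% also occur in other genes, 20.4% in *Ifi211*, while 75.2% of the words of *Ifi211* occur elsewhere. The shares were 34.2% for *Ifi204*, 25.0% for *Ifi203* and 30.8% for *Mndal*, but 1.1% for *Ifi202b* and 3.1% for *Aim2*. With *Ifi205* and *Ifi211* counted as 1 gene, a setting chosen after the values were seen, the log2 fold change was -0.97 with an adjusted p of 0.162 in edgeR. Most words of *Ifi205* are thus its own, and the summed gene had the smaller difference.

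Across 2 Mb on each side of *Ifi205*, 43 genes were tested, 11 of them of the p200 cluster with the pseudogene *Ifi203-ps*. The log2 fold change of *Ifi205* was the lowest of the 43, and by DESeq2 it was the 1 gene called, while edgeR called 0. At an unadjusted p under 0.05 edgeR found 5 of the 43 lower (*Ifi203*, *Ifi204*, *Ifi205*, *Mndal* and *Pea15a*). The neighbour nearest by start, *Ifi202b*, starts 49 kb away and had a log2 fold change of -0.05 ± 0.24. *Ifi203*, 89 kb away, had -0.22. The median over the 43 genes was -0.06.

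**Figure D3:**
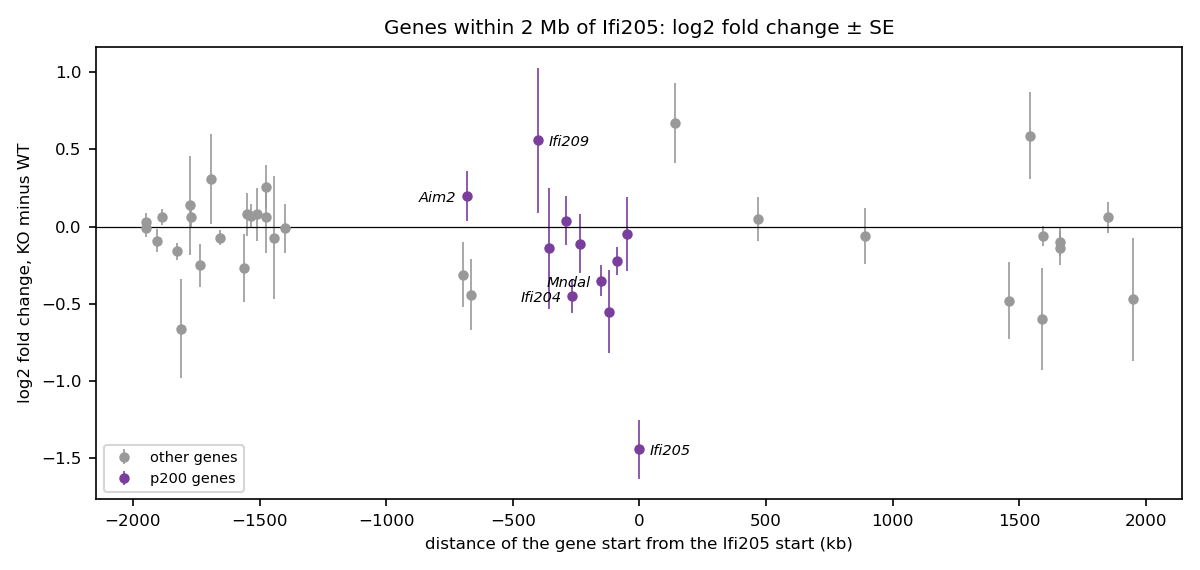
Log2 fold change, KO minus WT, with SE (vertical axis) of 43 genes against the distance of their start from that of *Ifi205* in kb (horizontal axis), with p200 genes in purple and other genes in grey. *Ifi205* lies at -1.44, and every other gene lies above -0.7.

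The IFIT genes encode proteins that bind viral RNA ends. *Ifit1* was read at 0.615, 1.21, 0.727 and 0.659 CPM in WT and 0.382, 0.521 and 0.483 CPM in KO. *Ifit3* was read at 0.576, 0.854, 0.674 and 0.611 CPM in WT and 0.243, 0.396 and 0.5 CPM in KO. Neither gene had overlapping groups, but both were rare, with 22 to 61 reads of *Ifit1* and 14 to 43 reads of *Ifit3* per library. Their log2 fold changes were -0.79 ± 0.29 and -0.83 ± 0.28, with adjusted p of 0.452 and 0.412 in edgeR. With single libraries left out they were nearest to 0 at -0.53 for *Ifit1*, without WT2, and at -0.59 for *Ifit3*, without KO2. *Ifit2*, the most abundant of the 4 in TPM, was at 5.88, 5.37, 5.62 and 5.56 CPM in WT and 3.94, 5.75 and 5.78 CPM in KO, so that KO2 alone was low. *Ifit3b* was at 0.231, 0.358, 0.106 and 0.289 CPM in WT and 0.208, 0.313 and 0.224 CPM in KO, with 6 to 18 reads per library. *Ifit3* and *Ifit3b* cannot be separated with confidence, since 39.1% of the 31-base words of *Ifit3* occur in *Ifit3b* and 57.8% of those of *Ifit3b* in *Ifit3*.

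The transcription factors lay near 0 or above it. *Irf1*, which is itself induced by interferon gamma and drives further target genes, was the 1 member with an unadjusted p under 0.05 in the upward direction. It was read at 40.5, 43.7, 40.8 and 44.2 CPM in WT and 69.2, 54.9 and 43.4 CPM in KO. KO2 and KO3 lay above the WT range and KO4 within it. The log2 fold change was 0.40 ± 0.13, with an adjusted p of 0.406 in edgeR and 0.161 in DESeq2, and it was 0.21 without KO2 and 0.56 at most with another library left out. DESeq2 called it when KO4 was left out. *Irf7*, *Irf9* and *Stat2*, the partners of the type I response, had log2 fold changes of -0.06 ± 0.12, 0.02 ± 0.08 and 0.22 ± 0.15 and overlapping groups. The start of *Irf1* carries a GAS match and no ISRE core, shown here with the GAS letters in capitals.
Irf1 (chr11:53660741-53660769, plus strand): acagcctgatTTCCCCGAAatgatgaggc

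The 5 members with the lower values at an unadjusted p under 0.05 all hold an ISRE core in the window searched. Across the 23 members that hold it, 17 had a log2 fold change below 0 and the median was -0.17. Across the 18 members without it, 11 were below 0 and the median was -0.04. By the GAS match, the median was -0.04 over the 10 members with it and -0.1 over the 31 without. Members of 1 family share their promoter letters, as the p200 sequences above show, so the ISRE cores are not 23 separate sites. The part of either element in the values was not tested. For the IFIT pair the cores lie on the other strand, at positions -86 and -67 in *Ifit1* and -126 and -92 in *Ifit3*, as in these plus-strand stretches.
Ifit1 (chr19:34618194-34618223): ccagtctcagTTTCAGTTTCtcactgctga
Ifit3 (chr19:34560797-34560826): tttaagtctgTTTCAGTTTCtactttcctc

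The membrane restriction factors were 4 of the 5 members above 100 TPM, at WT means of 786 TPM for *Ifitm2*, 498 for *Ifitm3*, 413 for *Bst2* and 107 for *Ifitm1*. The *Ifitm* genes encode membrane proteins that hinder viral fusion, and *Bst2* encodes tetherin, which holds budding virus at the cell surface. *Bst2* was read at 187, 152, 181 and 150 CPM in WT and 158, 137 and 150 CPM in KO, and the log2 fold change was -0.17 ± 0.095. *Ifitm2* and *Ifitm3* had log2 fold changes of 0.04 ± 0.09 and 0.09 ± 0.094, and *Ifitm1*, the most variable in WT (31.7 ± 8.27 CPM, SD, n = 4), had -0.05 ± 0.18. The groups overlapped for all 4. *Ifi27*, a mitochondrial and nuclear envelope protein, was the remaining member above 100 TPM, at 180 TPM, with 70.6 ± 3.62 CPM in WT (SD, n = 4) and 67.3 ± 8.54 CPM in KO (SD, n = 3).

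Among the 9 antiviral enzymes, 5 had a log2 fold change below 0 and 4 above, and all had overlapping groups. *Oasl2*, of the oligoadenylate synthetase family, was the lowest by p, at 7.09, 10.2, 5.96 and 8.66 CPM in WT and 5.96, 6.17 and 6.49 CPM in KO (log2 fold change -0.36 ± 0.17, adjusted p = 0.574 in edgeR). WT3 was as low as the KO libraries. The synthetases *Oas1a*, *Oas2* and *Oas3* had log2 fold changes of 0.15, 0.00 and -0.38, with *Oas3* at 0.155 to 0.466 CPM over the 7 libraries. The dynamin-like GTPases *Mx1* and *Mx2* had 0.29 and 0.06. *Rsad2*, which encodes viperin, and its genomic neighbour *Cmpk2*, a mitochondrial nucleotide kinase, both had -0.23, and the exonuclease gene *Isg20* had -0.10.

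*Isg15*, a ubiquitin-like modifier, was read at 2.40, 2.46, 1.70 and 2.09 CPM in WT and 1.74, 1.81 and 1.91 CPM in KO. Its groups overlapped through WT3, and its log2 fold change was -0.25 ± 0.16 (adjusted p = 0.708 in edgeR). *Usp18*, the protease that removes ISG15 and damps the type I receptor, was at 1.39 ± 0.342 CPM in WT (SD, n = 4) and 1.23 ± 0.231 CPM in KO (SD, n = 3). These genes are widely used as a readout of type I interferon, and here their differences were within the spread between libraries.

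The interferon-inducible GTPases act on membranes around intracellular pathogens. Of the 8, 6 had a log2 fold change below 0. *Gbp3* was read at 7.49, 7.93, 6.46 and 6.74 CPM in WT and 5.73, 6.31 and 6.26 CPM in KO, which did not overlap, with a log2 fold change of -0.23 ± 0.11 (edgeR adjusted p = 0.568). *Gbp2* was at 11.5, 14.6, 9.54 and 16.2 CPM in WT and 10.7, 8.96 and 10.4 CPM in KO, and the log2 fold change was -0.37 ± 0.17. The KO libraries of *Gbp2* sat at the lower end of a wide WT range. *Gbp7*, *Irgm1*, *Irgm2* and *Ifi47* had log2 fold changes from -0.13 to -0.05, and *Igtp* and *Iigp1* had 0.01 and 0.13. For *Iigp1* KO2 was the highest of all libraries, at 4.76 CPM, against 2.71 and 3.43 CPM in KO3 and KO4.

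The sensors and cell death genes were mixed. *Ifih1*, which encodes the RNA sensor MDA5, was read at 6.88, 8.23, 7.61 and 8.20 CPM in WT and 5.21, 6.83 and 7.81 CPM in KO (log2 fold change -0.22 ± 0.14). *Zbp1*, a sensor of Z-form nucleic acid, was at 0.596, 0.854, 0.408 and 0.466 CPM in WT and 1.09, 0.688 and 0.449 CPM in KO, with KO2 the highest library. *Xaf1* and *Parp14* had log2 fold changes of -0.01 and -0.07. *Ifi35* and *Ifi44* had -0.03 ± 0.082 and -0.30 ± 0.16, and no group among these separated.

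**Figure D4:**
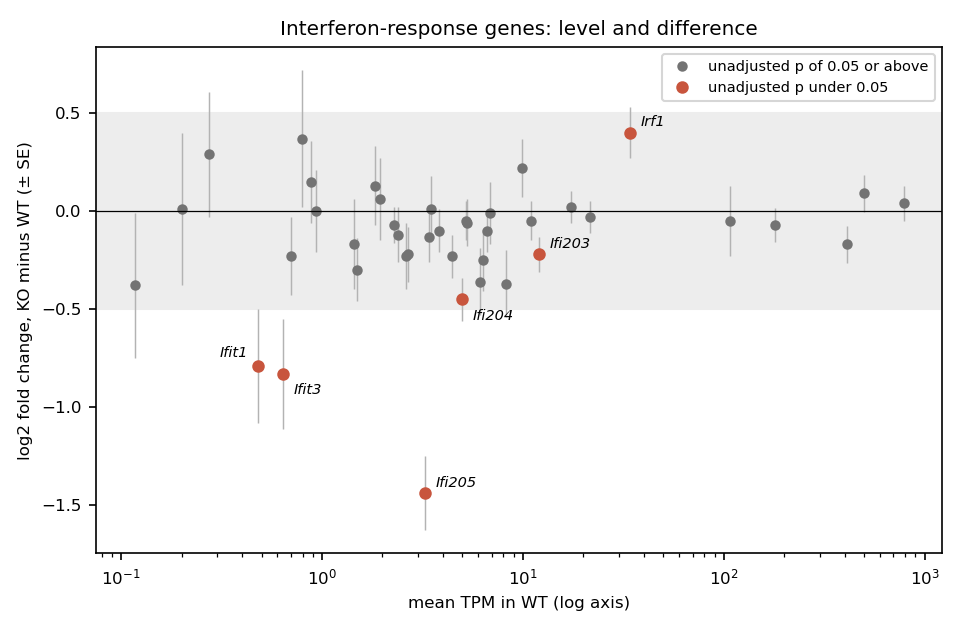
Log2 fold change, KO minus WT, with SE (vertical axis) of the 41 genes against their mean TPM in WT (horizontal log axis), with the genes at an unadjusted p under 0.05 in red and the range from -0.5 to 0.5 shaded. *Ifi205*, *Ifit1* and *Ifit3* lie below the shaded range, and the 5 genes above 100 TPM lie near 0.

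Upstream of these genes, interferon transcripts were almost absent. Of 21 interferon ligand genes, 13 had 0 reads in all 7 libraries, where a count of 0 allows up to 3 reads, or 0.0482 to 0.0625 CPM. The other 8 summed to 30 reads over all libraries, and the highest value in a library was 7 reads, of *Ifnz* in KO2. *Ifnl3*, of the lambda interferons, held 12 of the 30, with 5, 0, 2 and 4 reads in WT and 0, 0 and 1 in KO. *Ifng*, the gene of interferon gamma, had 4 reads in KO2, 1 in KO3 and 0 in the others, and *Ifnb1* had 0 in all. The receptors were read throughout, from 111 to 131 CPM over the 7 libraries for *Ifnar1* and 52.6 to 62.7 CPM for *Ifngr1*. Of the 6 receptor genes 0 were called by edgeR or DESeq2, and 0 had an unadjusted edgeR p under 0.05, with log2 fold changes from -0.04 to 0.19. *Socs3*, an inhibitor of cytokine receptors, was at 235, 195, 181 and 216 CPM in WT and 392, 281 and 216 CPM in KO (log2 fold change 0.52 ± 0.18, adjusted p = 0.421 in edgeR), and 0.26 without KO2. Its order of KO libraries, with KO2 highest and KO4 lowest, was that of *Irf1*.

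Over all pathway lists, 135 names in all, 104 genes were tested, and edgeR and DESeq2 each called 0, with 7 lower and 4 higher at an unadjusted p under 0.05 in edgeR, near the shares over all genes of 5.1% and 3.84%. Among 38 other interferon-induced genes tested, 4 had an unadjusted p under 0.05, all lower in KO and all without overlap between groups: *Samd9l*, *Sp100*, *Slfn5* and *Oas1g*. For 5 of the 38, these 4 and 1 with a log2 fold change of -0.06, every KO library was below every WT library, against 5.12% of all genes. *Samd9l*, an antiviral factor, was at 19.4, 20.8, 20.5 and 25.8 CPM in WT and 14.6, 15.1 and 18.1 CPM in KO, and the log2 fold change was -0.44 ± 0.12 (adjusted p = 0.314 in edgeR and 0.0568 in DESeq2). *Sp100* and *Slfn5* had -0.24 and -0.23 (-0.14 for *Slfn5* without KO2), and *Oas1g*, a near-copy of *Oas1a* under 0.5 CPM, had -1.24 ± 0.39. The median over the 38 was 0.00, with 18 below and 20 above 0. Among 17 sensors and adaptors, *Tlr9* had an unadjusted p of 0.0486 in edgeR, with a log2 fold change of -0.47 from 0.4 to 0.772 CPM.

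Genes of MHC class I presentation, which interferon gamma and IRF1 are known to induce, lay mostly the other way. Of 18 genes 13 had a log2 fold change above 0, with a median of 0.11. The 18 genes summed to 1120 to 1180 CPM in WT, and to 1330, 1160 and 1200 CPM in KO2, KO3 and KO4. The sum was thus highest in KO2, and KO3 lay within the WT range. At an unadjusted p under 0.05 edgeR found 3 higher and 1 lower, beside 3.84% and 5.1% of all genes. *H2-T23*, a nonclassical class I gene, was at 40.5, 45.0, 42.7 and 38.8 CPM in WT and 58.1, 50.3 and 52.6 CPM in KO. All KO libraries lay above all WT libraries. Its log2 fold change was 0.36 ± 0.072, with an adjusted p of 0.193 in edgeR and 0.00516 in DESeq2, below the fold threshold, and 0.30 without KO2. *Tap2* (0.25) and *Psmb8* (0.28), of peptide transport and cleavage, were higher and *Tapbp* (-0.18) lower at an unadjusted p under 0.05, and without KO2 the values of *Tap2* and *Psmb8* were 0.16 and 0.15. The 7 MHC class II genes summed to 45.0 to 86.8 CPM in WT and to 125, 43.9 and 58.6 CPM in KO2, KO3 and KO4, so that KO2 stood apart.

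**Figure D5:**
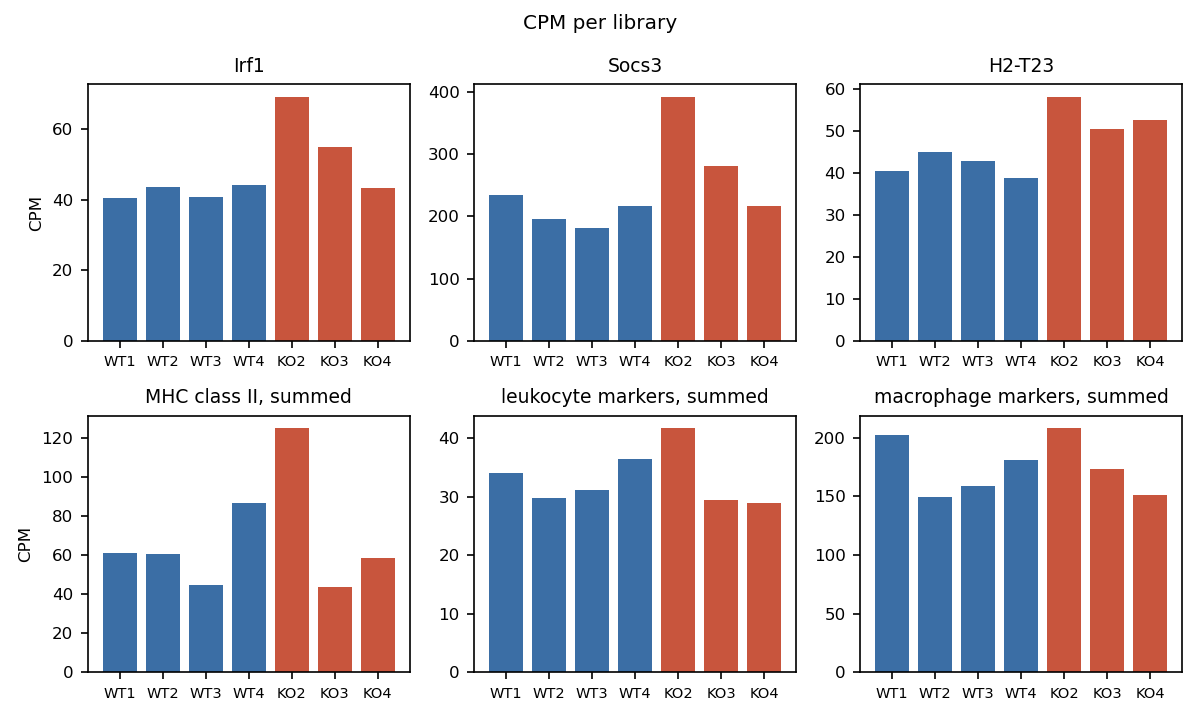
CPM per library (vertical axes from 0) of *Irf1*, *Socs3* and *H2-T23*, and of the summed MHC class II, leukocyte and macrophage genes, with WT in blue and KO in red. KO2 is the highest library in every panel, and for *H2-T23* all 3 KO libraries exceed the 4 WT libraries.

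Interferon-response genes are read in many cell types, and in whole tissue fewer cells of a type and less RNA per cell cannot be told apart. The 4 leukocyte markers summed to 29.7 to 36.5 CPM in WT and 28.9 to 41.7 CPM in KO. The 9 macrophage markers summed to 149 to 202 CPM in WT and 151 to 208 CPM in KO. Both ranges overlapped, and KO2 was highest in each. Of the 9 macrophage markers, 4 had a log2 fold change below 0 and 5 above 0. The 7 T and NK cell markers summed to 1.77 to 2.70 CPM in WT and 2.26 to 3.70 CPM in KO, with *Cd3d*, *Cd8a*, *Nkg7* and *Ncr1* under 0.5 CPM in all. B cell markers summed to 2.17 to 2.60 and 2.38 to 2.94 CPM, and neutrophil markers to 2.48 to 3.21 and 1.64 to 2.87 CPM, in WT and KO. The plasmacytoid dendritic cell markers *Siglech* and *Ccr9* were under 0.5 CPM in every library, and that list's sum, 320 to 355 CPM in WT and 309 to 342 in KO, was almost wholly the member *Bst2* and *Tcf4*, which many other cells express, at 168 to 192 CPM over the 7 libraries.

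The theca list was the 1 marker list whose summed CPM lay clearly apart between the groups. The 5 theca markers summed to 8150 to 10300 CPM in WT and 6960 to 7780 CPM in KO. Of these markers *Star* alone was lower in every KO library than in any WT library (log2 fold change -0.51, adjusted p = 0.529 in edgeR). The groups of the other theca markers overlapped. *Cyp11a1*, the largest part of the sum, had means of 6180 CPM in WT and 5450 CPM in KO. The 5 endothelial markers summed to 604 to 683 CPM in WT and 566 to 604 CPM in KO, so that the ranges touched, with log2 fold changes of -0.20 for *Cdh5* and -0.22 for *Tek*. Fibroblast markers summed to 4250 to 6890 CPM in WT and 4450 to 5100 CPM in KO. In the theca list the lowest log2 fold change was -0.67, of *Cyp17a1*, an enzyme of androgen synthesis. The part of these cell types in the values of the interferon-response genes was not tested.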

How the data were processed

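Per the labels and the study's methods, mRNA of granulosa cell-depleted ovary was sequenced as 100 bp read pairs from stranded libraries. The authors quantified transcripts with Salmon (version not given in the sources used here) on GENCODE M26 of GRCm39 and deposited, for each library, expected counts (estimated reads per transcript), TPM scaled by length and library total, and transcript lengths. Transcripts were matched by Ensembl ID to GENCODE M39 of GRCm39: 137570 of 139225 (98.8%), with 99.37% to 99.4% of reads. Expected counts were summed per gene and rounded; TPM was summed to compare levels between genes.

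The 4 WT and 3 KO libraries, grouped by the titles, were compared with edgeR 4.0.16 in R 4.3.3 (TMM factors, filterByExpr, two-sided quasi-likelihood test by glmQLFit and glmQLFTest), and p was adjusted by Benjamini-Hochberg over 19233 genes. SE was the log2 fold change divided by the root of F. DESeq2 1.42.0 was the alternative, with others named in the closing section. The code was tested on simulated data. Replicate numbers come from different mice and did not pair the libraries. Ratios within a library used exact permutation tests. Motifs were searched at starts of canonical transcripts. Sequences are from the GRCm39 genome with GENCODE starts.

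The members and gene lists were chosen with earlier results of these data known. Genes named besides the 41 are *Pgr*, listed pathway genes with an unadjusted edgeR p under 0.05 or a DESeq2 adjusted p of at most 0.05, interferon ligands and receptors, and cell type markers; the other p200 genes, neighbours within 2 Mb and chemokines were named after their values were seen. p-values measure the spread between pooled libraries, and intervals from counts of 0 cover counting error only. Of 12 other p200 names, 2 were not matched to a symbol. A few genes that this rule covers are not reported here.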

Additional observations from a re-analysis of the deposited data

Results flagged for a closer look

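Among the 4 WT libraries, 5 of the 41 genes had 1 library far from the others by Dixon's test, which divides the gap to the nearest library by the whole range. Chance flags about 1 in 20 such groups. WT4 was highest for *Oas1a*, at 1.38 CPM (0.866 of the range), and for *Oas3*, at 0.466 CPM (0.878). WT4 was lowest for *Gbp7*, at 12.3 CPM (0.862), and WT3 was lowest for *Mx1*, at 0.213 CPM (0.861). WT2 was highest for *Xaf1*, at 4.53 CPM (0.949). None of the genes with an unadjusted p under 0.05 (*Irf1*, *Ifi203*, *Ifi204*, *Ifi205*, *Ifit1* and *Ifit3*) had such a library in WT. The KO group, of 3 libraries, was not examined this way.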

How the results depend on the processing

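The number of genes called was 0 in edgeR and 1 (*Ifi205*, log2 fold change -1.43 in each) with DESeq2 or without a filter on low counts, also as the 1 call within 2 Mb; the cause was not tested. The edgeR count stayed at 0 under the other 4 edgeR alternatives and with each library left out, and no alternative called a gene of the pathway lists. With single libraries left out, DESeq2 called 1 to 2 members (the second was *Irf1*, without KO4). With single libraries left out of the edgeR fit, members at an unadjusted p under 0.05 numbered 2 (without KO2) to 9 (without WT3) in the lower direction and 0 (without KO2) to 1 in the higher one. For the log2 ratio of *Ifi205* to *Ifi203*, the KO mean minus the WT mean was -1.07 to -0.79 with a library left out. It then had an exact permutation p of 0.0667 or 0.1, which 6 libraries cannot bring under 0.05. For the log2 ratio to *Ifi204* the same difference of means was -0.94 at a pseudocount of 0.1, with an exact permutation p of 0.0286. *Ifi205* had the lowest log2 fold change of the members in these same libraries, so the p-values of the ratios are not independent evidence. The median of the 41 genes stayed between -0.11 and -0.06 and the number below 0 between 26 and 32.

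Of 532 values for the 41 genes under alternatives, 31, in 16 genes, changed sign, none of them in a gene with an unadjusted p under 0.05. With length offsets *Irf7* was 0.03, *Mx1* -0.11 and *Ifi27* 0.01. With single libraries left out the ranges were -0.10 to 0.03 for *Irf7*, -0.03 to 0.07 for *Irf9*, -0.21 to 0.04 for *Ifit2*, -0.24 to 0.23 for *Ifit3b*, -0.14 to 0.15 for *Ifitm1*, -0.01 to 0.11 for *Ifitm2*, -0.03 to 0.25 for *Mx2*, -0.11 to 0.02 for *Irgm1*, -0.11 to 0.31 for *Iigp1*, -0.12 to 0.15 for *Igtp*, -0.09 to 0.01 for *Ifi47*, -0.03 to 0.64 for *Zbp1*, -0.11 to 0.11 for *Xaf1*, -0.14 to 0.03 for *Ifi27* and -0.09 to 0.04 for *Ifi35*.

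Replicate numbers are shared by KO2 to KO4 and WT2 to WT4, but deviations of same-numbered libraries correlated at only -0.013, 0.106 and 0.085, and KO2 correlated best with WT4, so the numbers were not taken as pairs. With a replicate block, *Ifi205* was -1.35 with an adjusted p of 0.0899 in edgeR, 2 members were higher at an unadjusted p under 0.05, and *Ifitm1*, *Mx2* and *Igtp* were 0.14, -0.01 and -0.06. DESeq2 with the block still called *Ifi205*. Depth limits *Ifit1*, *Ifit3*, *Ifit3b*, *Oas1a*, *Oas3*, *Mx1* and *Zbp1*, each under 1.5 CPM.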

Other observations

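The chemokine genes *Cxcl9* and *Cxcl10*, which interferon gamma is known to induce in many cells, were picked out after their values were seen. *Cxcl10* was read at 1.69, 2.68, 2.22 and 3.12 CPM in WT1 to WT4 and at 5.78, 3.5 and 1.41 CPM in KO2, KO3 and KO4. *Cxcl9* was at 0 CPM in WT1 and at 0.358, 0.0355 and 0.305 CPM in the other WT libraries, and at 1.51, 0.0834 and 0.173 CPM in KO. In both, KO2 was the highest library and KO4 did not exceed the WT range. *Cd3d*, a T cell marker too rare to test, was at 0.382 CPM in KO2 and at most 0.0863 CPM in any other library. Of the same list, *Cd3e*, *Klrb1c*, *Nkg7* and *Ncr1* were also highest in KO2. *Cd4* (1.01 CPM) and *Cd8a* (0.156 CPM) in KO2 lay within the WT range. *Cd74*, of the class II list, was at 49.9 CPM in KO2 against 14.5 to 33.4 CPM elsewhere. *Irf1*, *Socs3*, *Zbp1* and *Iigp1* were also highest in KO2, whereas *Ifit1*, *Ifit2*, *Ifit3* and *Ifih1* were lowest there. These genes too were picked after their values were seen. Within the KO group, KO2 was highest for 15 of the 41 members and lowest for 13. The same counts were 13 and 13 for KO3, and 13 and 15 for KO4. The part of immune cells in these values was not tested.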
